A study of Mus musculus with 18 samples.

Results

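Voltage-gated sodium and calcium channels were read out in RNAseq of dorsal spinal cord (L3–5) of LacZ-, HDAC4 wt- and HDAC4 3SA-expressing mice 24 h after hindpaw CFA or saline. The genes were chosen by name alone: every gene whose symbol starts with Scn and a digit (sodium channel subunits) or with Cacna, Cacnb or Cacng (calcium channel subunits). This rule gave 36 of the 18182 genes that stand under a single name in the tables of all 3 vectors. Of these, 33 reached 0.5 FPKM in at least 1 of the 6 groups, as did 16707 genes in all. FPKM are fragments per kilobase of transcript, scaled to the number of mapped fragments, so they can be compared between genes of different length. Cacna1s, Cacng6 and Scn4a stayed below 0.5 FPKM in all 6 groups and were only counted. Cacna1f, Cacng1, Scn10a and Scn11a were not analysed here.

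The mice were 3-month-old C57BL/6 animals, C57BL/6N by the study's methods. All of them carried a recombinant adeno-associated virus (rAAV) in the spinal parenchyma, so the saline groups were not untreated. rAAV-LacZ served as the control vector, rAAV-HDAC4 wt delivered the wild-type histone deacetylase, and rAAV-HDAC4 3SA delivered a mutant without 3 phosphorylation sites needed for nuclear export, which stays in the nucleus. The labels do not name the promoter of the vectors or the cells that were transduced. Within each vector, 3 mice received Complete Freund's adjuvant (CFA), which inflames the hindpaw, and 3 received saline, and tissue was taken 24 h later. The 6 groups were LacZ saline, LacZ CFA, HDAC4 wt saline, HDAC4 wt CFA, HDAC4 3SA saline and HDAC4 3SA CFA, with 18 mice in all. CFA went into 1 hindpaw and the vectors into both sides of the cord. Whether the 3 mice of a group came from separate litters or injection days is not given in the labels.

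Each table held 1 FPKM value per group, estimated over its 3 mice. Values per mouse and read counts were not used here, the spread between mice and the depth of each library are unknown (the study's methods state only a minimum), and no value below carries an SD or a p-value. Each vector had a table of its own, and whether the 3 were normalised together is not given in the sources used here, so levels of different vectors are set side by side as a description only. A change is given as the log2 of CFA over saline within a vector, with 0.1 FPKM added to both values. A gene is said to have passed the fold when this change was beyond 0.5 in either direction, which is a 1.41-fold difference and the fold threshold of the study. The study also required a significant adjusted p-value, which was not applied here. A gene past the fold is therefore not a gene called by the study's rule. Whether a change exceeds the variation between mice was not tested here.

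Voltage-gated sodium channels open on depolarization and carry the upstroke of the action potential. Their alpha subunit forms the pore, and beta subunits alter gating and anchor the channel in the membrane. Voltage-gated calcium channels turn depolarization into calcium entry, which at nerve terminals triggers transmitter release. Their pore is the alpha1 subunit, the alpha2delta and beta subunits bring it to the membrane, and most gamma subunits serve AMPA-type glutamate receptors instead and are called TARPs. In pain pathways these channels set the firing of sensory and dorsal horn neurons, and ziconotide (an N-type blocker) and gabapentin (an alpha2delta ligand) act on members of the calcium channel family.

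The sodium channel alpha genes are close paralogs, and reads of 50 bases cannot always tell them apart. Over whole protein-coding transcripts, the share of 50-base stretches that also occur in a transcript of another gene was 8.25% for Scn3a, 8.18% for Scn2a1, 5.30% for Scn1a, 5.17% for Scn9a and 0.0393% for Scn8a. For Scn7a it was 0 of 7289 stretches. Among calcium channel genes the highest share was 1.83%, in Cacng8. How the authors' counting divided reads from the shared stretches between the paralogs is not given in the sources used here.

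Dorsal spinal cord expressed most channel genes, and the order of their levels was much alike in the 6 groups. Cacng7, a TARP gene, was among the highest at 49.2 to 62.8 FPKM, and Scn4b, Scn1a, Scn2b and Scn8a took places 3 to 6 of the 33 genes in every group. Scn9a and Cacna2d4 were among the lowest, between 0.448 and 1.42 FPKM, although the 4 rows of Scn9a assigned here to its annotated strand (its own-strand rows) summed to between 1.65 FPKM and 4.42 FPKM. Each FPKM is scaled to the length of its own row, so such a sum can exceed the level of the gene. Without values per mouse, neighbours in the order of levels cannot be said to differ.

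**Figure D1:**
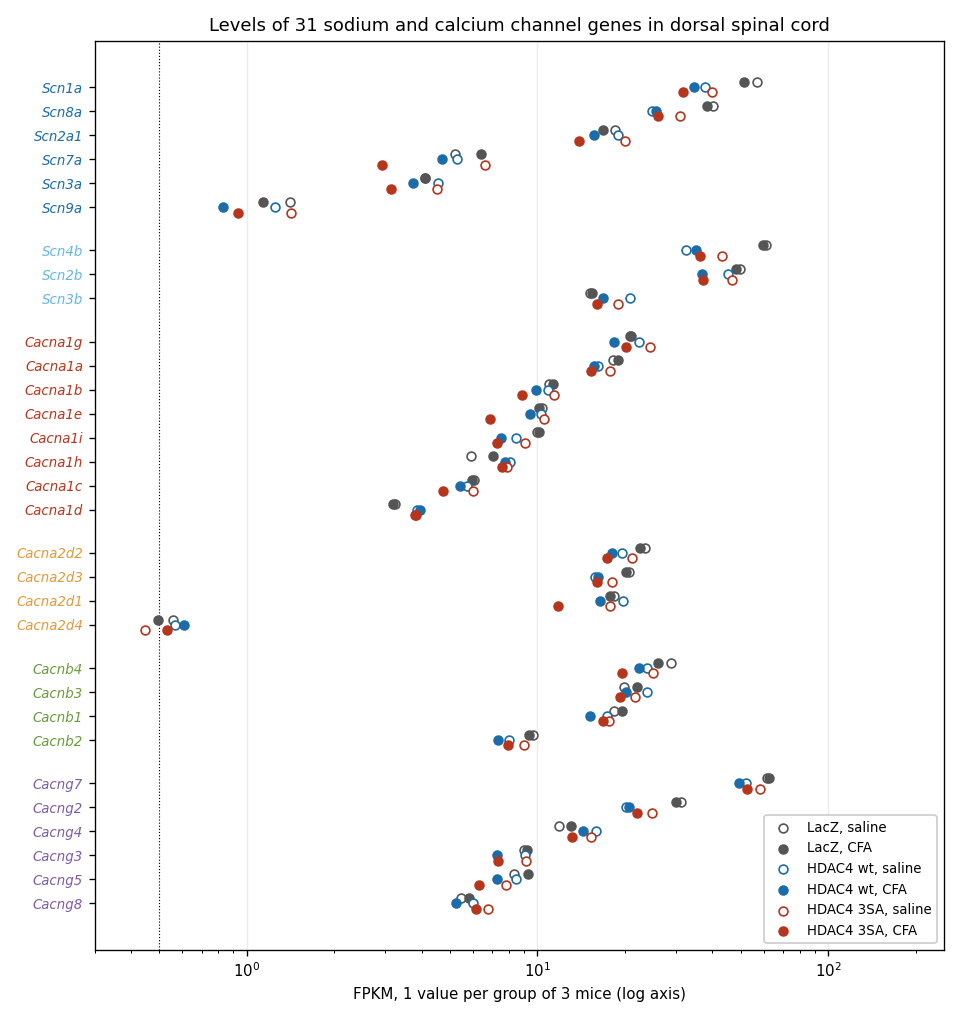
FPKM of 31 channel genes on a log axis, grouped by role, with 1 point per group of 3 mice (open, saline; filled, CFA; grey, LacZ; blue, HDAC4 wt; red, HDAC4 3SA) and a dotted line at 0.5 FPKM. Cacng7 sat at 49.2 to 62.8 FPKM, and the HDAC4 3SA CFA point of Scn7a, at 2.92 FPKM, lay left of its other 5 points.

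Of the sodium channel alpha genes, Scn1a and Scn8a made up most of the summed level in every group. The summed FPKM of the 7 genes was 127 in LacZ saline, 119 in LacZ CFA, 93.0 in HDAC4 wt saline, 85.5 in HDAC4 wt CFA, 104 in HDAC4 3SA saline and 79.1 in HDAC4 3SA CFA. Scn1a, which encodes Nav1.1, held 38.4 to 44.9% of this sum and Scn8a, which encodes Nav1.6, held 26.6 to 32.8%. Scn2a1 (Nav1.2) held 14.1 to 20.3%, Scn7a 3.70 to 6.36%, Scn3a (Nav1.3) 3.23 to 4.91% and Scn9a (Nav1.7) 0.960 to 1.37%. The Scn9a share is that of its highest row, and with the rows of each gene's own strand summed it was 1.77 to 3.40%.

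Of the calcium channel alpha1 genes, those of the Cav2 and Cav3 classes summed to more than those of the Cav1 class in every group, by a margin that depended on the rows read. The Cav2 genes, whose P/Q-type (Cacna1a), N-type (Cacna1b) and R-type (Cacna1e) channels drive transmitter release, summed to between 31.0 FPKM and 40.5 FPKM. The Cav3 genes, whose T-type channels (Cacna1g, Cacna1h, Cacna1i) open near the resting potential, summed to between 33.5 FPKM and 41.3 FPKM. The L-type genes Cacna1c and Cacna1d summed to between 8.56 FPKM and 9.80 FPKM. The Cav2 class held 41.5 to 46.2% and the Cav3 class 42.9 to 47.0% of the alpha1 sum. The locus in the tables covered 86.0% of the annotated Cacna1c gene and 69.4% of Cacna1d, which stood in 8 separate rows, so these L-type levels rest on part of each gene. With FPKM summed over all rows numbered on the own strand of each gene, the Cav1 class came to between 18.4 FPKM and 25.1 FPKM, or 19.2 to 26.6% of the alpha1 sum, the Cav2 class to 34.0 to 40.6% and the Cav3 class to 37.5 to 41.4%. The classes were then nearest to each other in HDAC4 3SA CFA, at 25.1, 32.0 and 37.2 FPKM. Because a sum over rows can exceed the level of a gene, these Cav1 values may be too high.

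After CFA, the channel genes were centred near no change in LacZ mice and lay mostly below saline with both HDAC4 vectors. In LacZ mice none of the 33 genes passed the fold, where 8.32% of all genes did (5.35% higher, 2.97% lower). In HDAC4 wt mice 1 gene passed the fold, Scn9a, and it was lower, where 5.63% of all genes were higher and 3.82% lower. With HDAC4 3SA, 6 genes passed the fold and all were lower: Scn7a, Cacna1e, Cacna2d1, Scn9a, Scn3a and Scn2a1. Among all genes in HDAC4 3SA mice, 10.1% were higher and 3.77% lower past the fold. The Scn9a calls rest on which of its 6 rows is read, as described with that gene. Read from its highest own-strand row, Scn9a was higher past the fold in HDAC4 wt mice, and the other 5 genes passed it in HDAC4 3SA mice. None of the other 32 genes was higher past the fold in any vector.

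The count of genes on either side of no change moved in the same order. In LacZ mice 16 channel genes were above 0 and 17 below, against 46.1% of all genes below. In HDAC4 wt mice 6 were above and 27 below, against 48.7% of all genes below. With HDAC4 3SA, 2 were above and 31 below, against 46.5% of all genes below. The 33 genes had a median log2 change of -0.01 with LacZ, -0.13 with HDAC4 wt and -0.27 with HDAC4 3SA, beside 0.01, 0.00 and 0.02 over all genes. Of all genes, 43.6%, 20.5% and 11.4% lay below these medians of the channel genes.

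**Figure D2:**
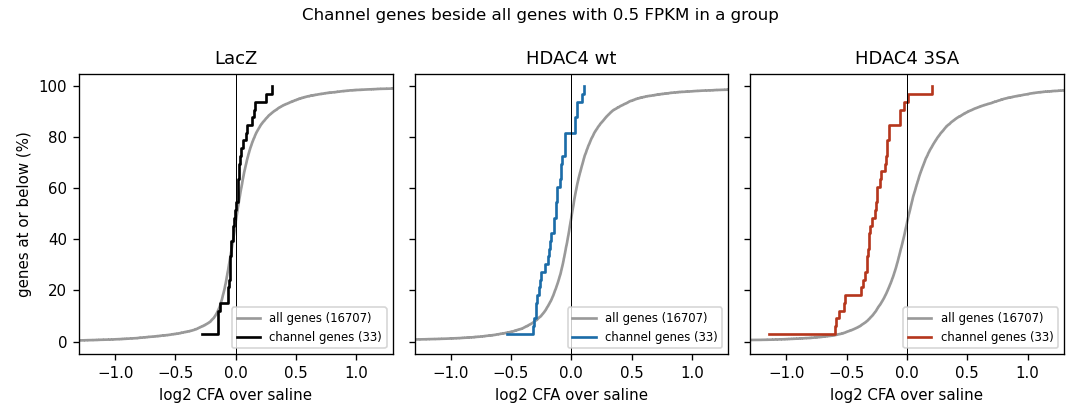
Share of genes (%) at or below each log2 change of CFA over saline, for all 16707 genes with 0.5 FPKM in a group (grey) and the 33 channel genes (coloured), by vector. The lines lie together in LacZ mice (medians 0.01 and -0.01) and the channel line lies left of the grey one in HDAC4 wt (-0.13) and further left in HDAC4 3SA mice (-0.27).

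Set side by side, the changes in HDAC4 3SA mice were lower than those in LacZ mice for 31 of 33 channel genes, where this held for 48.6% of all genes. The median of the differences was -0.28 on the log2 scale, beside 0.01 over all genes. The changes in HDAC4 3SA mice were also lower than those in HDAC4 wt mice for 25 of 33 genes (47.5% of all genes), with a median difference of -0.14 beside 0.01 over all. Those in HDAC4 wt mice were lower than those in LacZ mice for 25 of 33 genes as well (51.5% of all genes), with a median difference of -0.13 beside -0.01. These differences share the values of each vector, so they are not separate evidence. In both HDAC4 vectors 27 of the 33 genes were lower after CFA, against 32.5% of all genes, and 16 of these 27 were higher in LacZ mice, a pattern of 13.8% of all genes. These differences were not tested.

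**Figure D3:**
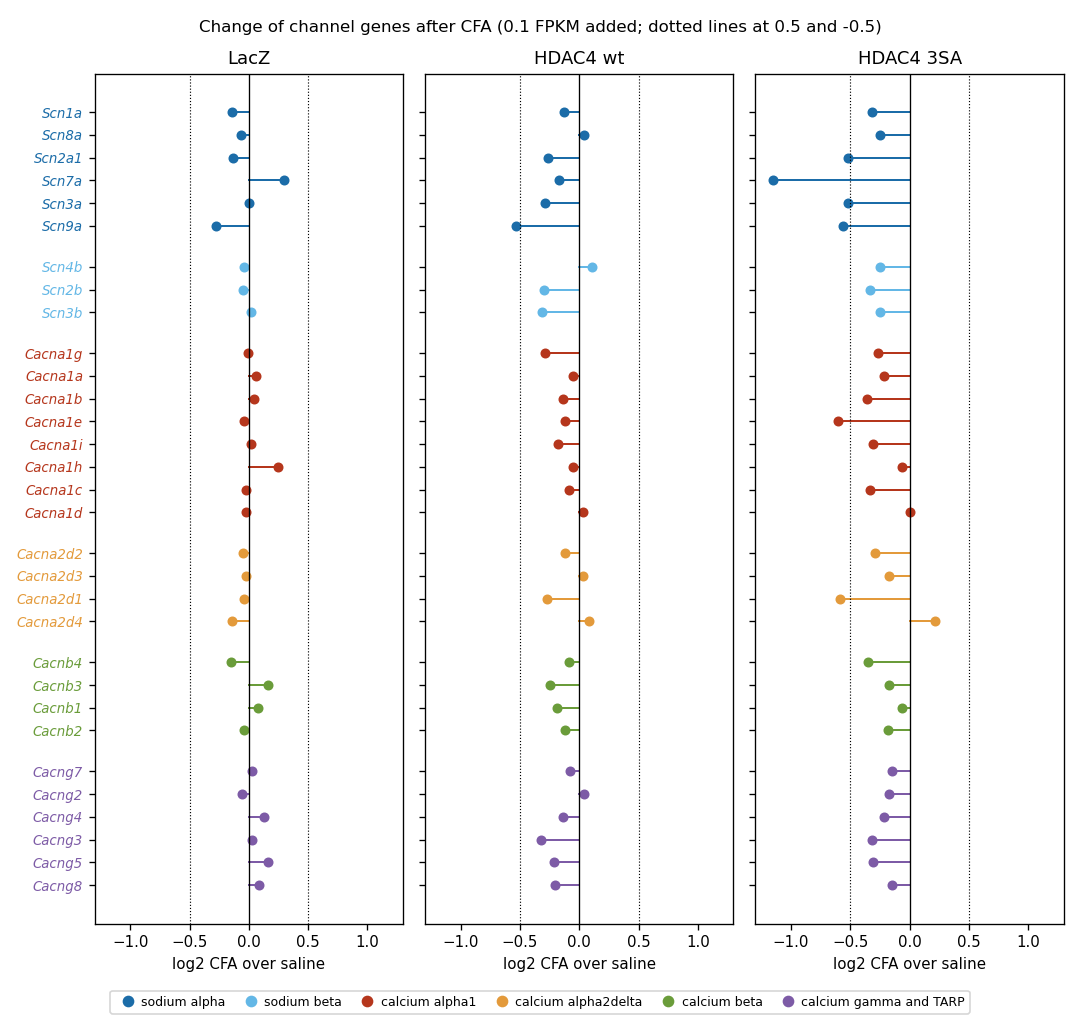
Log2 change of CFA over saline for 31 channel genes in LacZ, HDAC4 wt and HDAC4 3SA mice, coloured by role, with dotted lines at the fold of 0.5 in either direction. In LacZ mice the genes lie between -0.28 and 0.30. In HDAC4 3SA mice all but Cacna1d (0.00) and Cacna2d4 (0.21) lie left of 0, with Scn7a at -1.15.

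The sodium channel alpha genes had the lowest median of the 6 roles in HDAC4 3SA mice. All 7 were lower after CFA and 4 passed the fold, with a median log2 change of -0.52 and a range of -1.15 to -0.25. With Scn9a read from its highest own-strand row, 6 of the 7 were lower and 3 passed the fold, with a median of -0.38. In LacZ mice their median was -0.07 and in HDAC4 wt mice -0.17.

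Scn7a, which encodes Nax, a sodium-level sensor without the usual voltage gating, differed most between vectors. It read 5.19 FPKM in LacZ saline and 6.42 in LacZ CFA, 5.28 in HDAC4 wt saline and 4.69 in HDAC4 wt CFA, and 6.60 in HDAC4 3SA saline and 2.92 in HDAC4 3SA CFA. The HDAC4 3SA saline value was the highest and the HDAC4 3SA CFA value the lowest of the 6 groups. The log2 changes were 0.30 with LacZ, -0.17 with HDAC4 wt and -1.15 with HDAC4 3SA, where CFA was at 0.443 of saline.

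Genes of myelinating Schwann cells moved with Scn7a. Prx, which encodes periaxin of the myelin sheath, had log2 changes of 0.72, -0.04 and -0.75 in LacZ, HDAC4 wt and HDAC4 3SA mice, and Ncmap and Pmp22 moved in the same order. Prx is also a gene that the study picked from these samples. Prx (0.72) and Pmp22 (0.59) passed the fold upward in LacZ mice, and Prx, Ncmap (-0.90) and Pmp22 (-0.53) passed it downward in HDAC4 3SA mice. The median over the 4 genes read of the 5 listed was 0.61, -0.04 and -0.74. Their summed level was 979 and 1509.9 FPKM in LacZ saline and CFA, 986 and 973 FPKM in HDAC4 wt, and 1349 and 838 FPKM in HDAC4 3SA, and none was at 0. Markers of sensory ganglion neurons gave another pattern, with medians of 0.12, 0.59 and 0.23 over 4 genes. Avil (1.62) and Calca (0.76) passed the fold in HDAC4 wt mice and Sncg (0.60) in HDAC4 3SA mice, while Trpv1 stayed at or below 0.421 FPKM. These genes did not move together: P2rx3 had -0.14, -0.12 and -0.11, and Avil had -0.12 in LacZ mice. The part of the Schwann cell genes in the Scn7a result was not tested. In bulk tissue, fewer cells of a type and less RNA per cell cannot be told apart.

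Scn2a1 and Scn3a also passed the fold in HDAC4 3SA mice. Scn2a1, the gene of a channel of axons and their initial segments, read 18.5 and 16.8 FPKM in LacZ saline and CFA, 18.9 and 15.7 in HDAC4 wt, and 20.0 and 13.9 in HDAC4 3SA. Scn3a, best known from developing and injured neurons, read 4.10 and 4.11 FPKM in LacZ, 4.57 and 3.73 in HDAC4 wt, and 4.53 and 3.13 in HDAC4 3SA. Both had their lowest value in HDAC4 3SA CFA. The log2 changes of Scn2a1 were -0.13, -0.26 and -0.52 and those of Scn3a 0.00, -0.29 and -0.52, in the order LacZ, HDAC4 wt, HDAC4 3SA. With both at -0.52 they lay just past the fold, and Cacna1b, at -0.36, lay inside it. They also share 529 of the 50-base stretches with each other, so their values are not fully separate.

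The abundant Scn1a and Scn8a were lower in HDAC4 3SA CFA than in HDAC4 3SA saline but did not pass the fold. Scn1a, found in inhibitory interneurons and in large fibres, read 57.0 and 51.5 FPKM in LacZ saline and CFA, 37.8 and 34.5 in HDAC4 wt, and 39.9 and 31.8 in HDAC4 3SA. Scn8a, the main channel of mature nodes of Ranvier, read 40.2 and 38.4 FPKM in LacZ, 24.8 and 25.6 in HDAC4 wt, and 30.9 and 26.0 in HDAC4 3SA. For both genes the pair of LacZ values stood above the other 4. In HDAC4 3SA mice the log2 change was -0.32 for Scn1a and -0.25 for Scn8a.

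Scn9a, known for loss-of-function mutations that abolish pain in humans, was low, and its direction depended on the row. The row with the highest mean read 1.41 and 1.14 FPKM in LacZ saline and CFA, 1.25 and 0.831 in HDAC4 wt, and 1.42 and 0.933 in HDAC4 3SA. Its log2 changes were -0.28, -0.53 and -0.56. This row, at chr2:66270440-66562387, covers 53.1% of the annotated gene and spans Scn1a as well.

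The number of this row lies in a run of plus-strand rows, although Scn9a is annotated on the minus strand. The tables do not state a strand, which was inferred here from the order of the row numbers. For 12776 of 12968 genes with 1 row (98.5%) the strand of the run matched the annotated one, and for 7078 of the 7093 with a mean of at least 5 FPKM (99.8%). An annotated antisense gene, Gm13629, lies on the plus strand at chr2:66440880-66546026, within the locus. The row of Scn9a with the highest mean in the minus-strand run read 1.29 and 1.34 FPKM in LacZ, 0.648 and 1.05 in HDAC4 wt, and 1.03 and 1.33 in HDAC4 3SA. On this row the changes were 0.05, 0.62 and 0.33, opposite in sign to those of the highest row. The other 3 rows of that strand were lower after CFA in LacZ (-0.71, -0.28 and -0.27) and in HDAC4 3SA mice (-0.74, -0.18 and -0.31). In HDAC4 wt mice they gave -0.05, 0.45 and 0.79. The 4 rows summed to 4.42 and 3.54 FPKM in LacZ, 1.65 and 2.41 in HDAC4 wt, and 1.91 and 1.95 in HDAC4 3SA, with changes of -0.31, 0.52 and 0.03. No direction is therefore given for Scn9a.

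The sodium channel beta genes changed little in LacZ mice and were lower in HDAC4 3SA mice, with none past the fold. Scn4b, whose subunit is tied to resurgent current, read 61.2 and 59.7 FPKM in LacZ, 32.5 and 35.1 in HDAC4 wt, and 43.1 and 36.2 in HDAC4 3SA. Scn2b, whose subunit binds alpha subunits by a disulfide bond, read 49.8 and 48.2 FPKM in LacZ, 45.3 and 36.8 in HDAC4 wt, and 46.6 and 37.0 in HDAC4 3SA. Scn2b was thus lower in both HDAC4 CFA groups than in the other 4. The log2 changes in HDAC4 3SA mice were -0.25 for Scn4b, -0.33 for Scn2b and -0.25 for Scn3b, and in HDAC4 wt mice 0.11, -0.30 and -0.31.

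Among the calcium channel alpha1 genes, the R-type gene Cacna1e passed the fold in HDAC4 3SA mice. It read 10.4 and 10.1 FPKM in LacZ saline and CFA, 10.3 and 9.45 in HDAC4 wt, and 10.5 and 6.88 in HDAC4 3SA. The 3 saline values lay within 10.3 to 10.5 FPKM and the HDAC4 3SA CFA value stood below all others. The log2 changes were -0.04, -0.12 and -0.60. A second row of Cacna1e, at 1.02 to 2.36 FPKM, gave 0.11, -0.62 and -0.84.

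The other alpha1 genes stayed inside the fold. Cacna1g, the most abundant T-type gene, read 21.0 and 20.9 FPKM in LacZ saline and CFA, 22.4 and 18.3 in HDAC4 wt, and 24.4 and 20.2 in HDAC4 3SA. Cacna1a, the P/Q-type gene, read 18.2 and 19.0 FPKM in LacZ, 16.2 and 15.6 in HDAC4 wt, and 17.8 and 15.3 in HDAC4 3SA. Cacna1b, the N-type gene, read 11.0 and 11.3 FPKM in LacZ, 10.9 and 9.87 in HDAC4 wt, and 11.4 and 8.85 in HDAC4 3SA. All 3 were lower after CFA in both HDAC4 vectors, with changes in HDAC4 3SA mice of -0.27, -0.22 and -0.36.

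The T-type gene Cacna1h, an important channel of sensory neurons, had the second highest change of the 33 genes in LacZ mice, 0.25, and -0.05 and -0.06 in the HDAC4 vectors. A second row of Cacna1h, at 1.79 to 2.85 FPKM, gave 0.21, -0.21 and 0.14. Cacna1i, the remaining T-type gene, had -0.31 in HDAC4 3SA mice. Cacna1c, an L-type gene, read 6.04 and 5.95 FPKM in LacZ, 5.75 and 5.40 in HDAC4 wt, and 6.01 and 4.75 in HDAC4 3SA, a change of -0.33 in the last. Cacna1d, the other L-type gene, read from its highest row 3.23 and 3.19 FPKM in LacZ, 3.86 and 3.95 in HDAC4 wt, and 3.80 and 3.81 in HDAC4 3SA. This row gave 0.00 in HDAC4 3SA mice, and 3 other rows with over 3 FPKM in HDAC4 3SA saline gave 0.42, 0.59 and -0.04 there. Its 7 own-strand rows summed to 16.5 and 17.4 FPKM in LacZ, 13.6 and 13.0 in HDAC4 wt, and 17.0 and 20.4 in HDAC4 3SA. The changes of this sum were 0.07, -0.06 and 0.26. The sum stood above Cacna1c in every group, while the highest row stood below it. As FPKM are scaled to the length of each row, a sum over rows can exceed the level of the gene. Which of the 2 genes was higher is therefore not said.

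Of the alpha2delta genes, Cacna2d1 passed the fold in HDAC4 3SA mice. Cacna2d1, whose subunit binds gabapentin, read 18.4 and 17.8 FPKM in LacZ saline and CFA, 19.7 and 16.4 in HDAC4 wt, and 17.8 and 11.8 in HDAC4 3SA. Its log2 changes were -0.04, -0.27 and -0.59, and the HDAC4 3SA CFA value stood below the other 5. Its share of the summed alpha2delta level was 31.0% in HDAC4 3SA saline and 25.9% in HDAC4 3SA CFA. In saline and CFA it was 35.4 and 32.0% in HDAC4 wt, and 29.2 and 29.1% in LacZ.

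Cacna2d2, which also binds gabapentin, read 23.5 and 22.6 FPKM in LacZ, 19.6 and 18.0 in HDAC4 wt, and 21.2 and 17.3 in HDAC4 3SA. Cacna2d3, a gene tied to heat pain in flies and mice, read 20.6 and 20.2 FPKM in LacZ, 15.8 and 16.1 in HDAC4 wt, and 18.0 and 16.0 in HDAC4 3SA. Their changes in HDAC4 3SA mice, -0.29 and -0.17, were inside the fold. Cacna2d4, a gene of the retina, read 0.558 and 0.495 FPKM in LacZ, 0.567 and 0.607 in HDAC4 wt, and 0.448 and 0.533 in HDAC4 3SA. Its locus covers 12.3% of the annotated gene, so the change of 0.21 in HDAC4 3SA mice rests on a low value over a small part of it.

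No calcium channel beta gene passed the fold, and the medians of the 4 genes were 0.02, -0.15 and -0.17. Cacnb4, the highest beta gene in all groups but HDAC4 wt saline, where Cacnb3 read as high, gave 28.9 and 26.0 FPKM in LacZ saline and CFA, 23.8 and 22.3 in HDAC4 wt, and 25.0 and 19.6 in HDAC4 3SA. Cacnb3, of which the locus covers 89.9%, read 19.8 and 22.1 FPKM in LacZ, 23.9 and 20.1 in HDAC4 wt, and 21.6 and 19.2 in HDAC4 3SA. Cacnb1, first known from skeletal muscle, read 18.4 and 19.6 FPKM in LacZ, 17.3 and 15.2 in HDAC4 wt, and 17.6 and 16.8 in HDAC4 3SA. Cacnb3 and Cacnb1 stood above saline after CFA with LacZ and below it with both HDAC4 vectors. Cacnb4 changed by -0.35 with HDAC4 3SA and Cacnb2, the least abundant of the 4, by -0.18.

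The gamma and TARP genes lay close together, with medians of 0.06, -0.17 and -0.19 and none past the fold. Cacng7 read 61.5 and 62.8 FPKM in LacZ saline and CFA, 52.1 and 49.2 in HDAC4 wt, and 58.1 and 52.4 in HDAC4 3SA. Cacng2, which encodes stargazin, read 31.3 and 29.9 FPKM in LacZ, 20.1 and 20.7 in HDAC4 wt, and 24.8 and 22.0 in HDAC4 3SA. Cacng4 read 11.9 and 13.1 FPKM in LacZ, 15.9 and 14.4 in HDAC4 wt, and 15.3 and 13.2 in HDAC4 3SA. With HDAC4 3SA, CFA lay below saline for all 6 genes, from -0.32 in Cacng3 to -0.15 in Cacng7 and Cacng8, with Cacng5 at -0.31. In LacZ mice 5 of the 6 were higher, the exception being Cacng2. These changes are those of the highest row of each gene. A second row of Cacng8, at 0.729 to 1.33 FPKM, gave -0.35, -0.79 and 0.35.

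Levels of the saline groups were set side by side as well. HDAC4 wt had 4 of 33 channel genes (12.1%) more than 0.5 on the log2 scale below LacZ, against 6.12% of all genes, and none above, against 17.1%. The 4 below were Scn4b at -0.91, Scn8a at -0.70, Cacng2 at -0.64 and Scn1a at -0.59, while the median over all genes was 0.07. In HDAC4 3SA saline, Scn1a at -0.52 and Scn4b at -0.51 lay below LacZ saline by that margin. These 2 of 33 (6.06%) are near the 4.56% of all genes, with a median over all genes of 0.05. The summed level of the 6 neuron genes was 2339 FPKM in LacZ saline, 1515 in HDAC4 wt saline and 1702 in HDAC4 3SA saline. Snap25 (1227, 795 and 861 FPKM), Nefl, Tubb3 and Stmn2 were highest in LacZ saline. Rbfox3 (71.6, 68.0 and 73.7) and Syt1 (86.2, 90.8 and 84.6) were not. The sum of the 5 microglial genes was 88.8, 487 and 363 FPKM, with C1qa at 37.5, 360.2 and 254 and P2ry12 at 11.1, 13.9 and 13.6. The part of these lists in the channel levels was not tested. Over the 6 groups, HDAC4 3SA CFA held the lowest value of 15 of the 33 genes, against 17.7% of all genes. LacZ saline held the lowest value of 3 of the 33, against 30.5% of all genes.

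Marker genes of neurons were read beside the channel genes, since the channels are largely neuronal. Defining markers of neurons were present throughout, with Snap25 at 646 to 1227 FPKM and Rbfox3 at 58.1 to 76.5 FPKM. In HDAC4 3SA mice the 7 dorsal horn neuron genes were all lower after CFA, with a median of -0.33. Their sum was 232 FPKM in HDAC4 3SA saline and 183 in HDAC4 3SA CFA, and the transcription factor gene Lmx1b, at -0.59, passed the fold. Their medians in LacZ and HDAC4 wt mice were 0.10 and -0.20, and Pdyn, which encodes prodynorphin, passed the fold upward in LacZ mice at 0.97. The 6 general neuron genes had medians of 0.06, -0.06 and -0.12. In HDAC4 3SA mice they parted, with Syt1 at -0.48, Snap25 at -0.41 and Rbfox3 at -0.29, and Tubb3 at 0.20, Nefl at 0.14 and Stmn2 at 0.04.

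Motor neuron genes moved the other way. All 4 (Chat, Slc5a7, Mnx1 and Prph) passed the fold upward in HDAC4 wt and HDAC4 3SA mice, with medians of 1.11 and 1.38 against 0.36 in LacZ mice, where Mnx1 passed it at 0.74. Their sum was 27.9 FPKM in HDAC4 3SA saline and 69.3 in HDAC4 3SA CFA. Microglial genes had medians of 0.11, 0.18 and 0.56, with Cx3cr1, C1qa and Csf1r past the fold in HDAC4 3SA mice. The skeletal muscle list had medians of 1.04, -1.85 and -0.41 over 6 genes, whose sum lay between 1.33 and 58.1 FPKM. All 6 (Acta1, Myh4, Ckm, Tnnt3, Actn3 and Myl1) passed the fold upward in LacZ mice, all but Actn3 downward in HDAC4 wt mice, and Myh4 downward in HDAC4 3SA mice. The part of these cell types in the channel results was not tested.

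**Figure D4:**
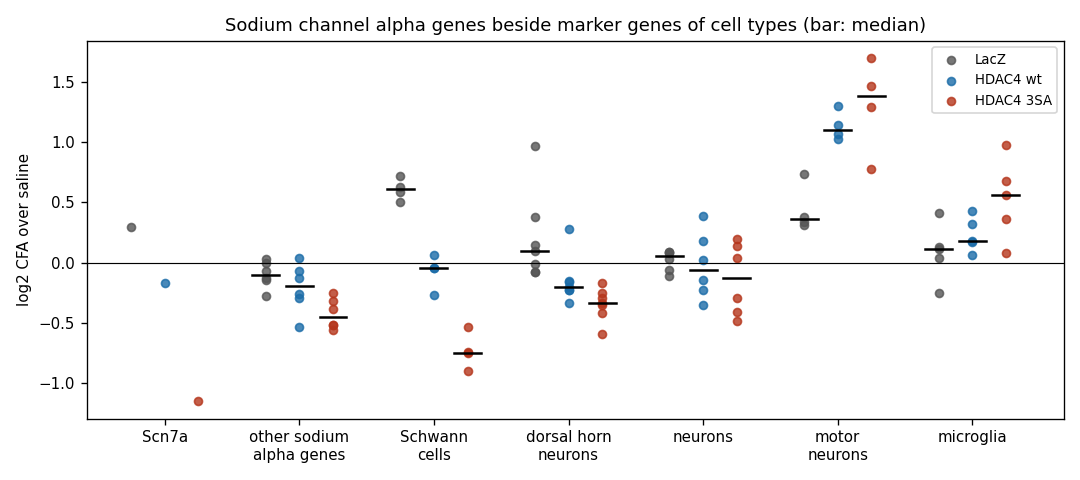
Log2 change of CFA over saline of Scn7a, of the other 6 sodium channel alpha genes and of marker genes of 5 cell types, with 1 point per gene, coloured by vector, and a bar at the median. Scn7a and the Schwann cell genes run from above 0 in LacZ (0.30 and a median of 0.61) to below 0 in HDAC4 3SA mice (-1.15 and -0.74), while motor neuron genes lie above 0 in every vector.

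The changes were also set beside base composition and transcript length. For the longest protein-coding transcript of each gene, the Spearman correlation of the log2 change in HDAC4 3SA mice with GC content was 0.62 over the 33 channel genes and 0.16 over the 13759 genes with a value. With transcript length it was -0.56 and -0.21, in LacZ mice -0.39 and -0.24, and in HDAC4 wt mice 0.04 and 0.00. In LacZ mice the correlation with GC content was 0.54 over the channel genes and 0.43 over all genes, and in HDAC4 wt mice 0.18 and 0.06. These are correlations across genes of the same libraries and carry no p-value. Scn7a, at 40.2% GC, Cacna2d1, at 40.7%, and Scn3a, at 42.1%, were among the channel genes with the least GC, and Cacna1e, at 14921 bases, had the longest transcript. The part of these properties in the result was not tested.

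The channel genes were also set beside all genes of like GC content or length in HDAC4 3SA mice. Among the 2752 genes with 21.8 to 44.4% GC, the 7 channel genes had a median of -0.52, against -0.04 over all. Among the 2752 genes with 56.1 to 76.5% GC, the 10 channel genes had a median of -0.16, against 0.06. The 3 classes between gave -0.25, -0.25 and -0.27 for the channel genes and -0.01, 0.02 and 0.05 for all. Of 5 classes by length, the longest, from 5179 bases up, held 20 of the 33 channel genes, with a median of -0.33 against -0.05 over all.

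**Figure D5:**
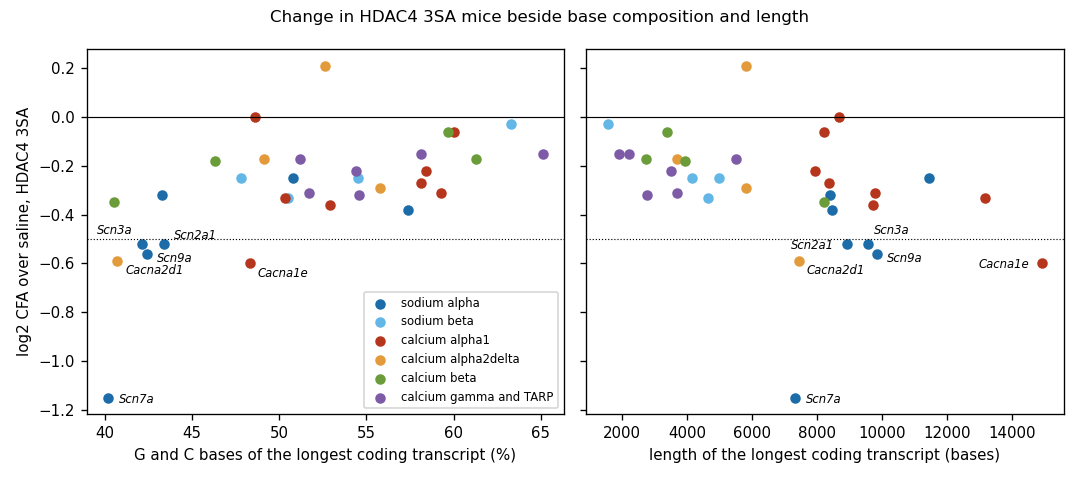
Log2 change of CFA over saline in HDAC4 3SA mice against GC content (left, %) and length (right, bases) of the longest protein-coding transcript, with 1 point per channel gene, coloured by role, and names at the 6 genes past the fold (dotted line at -0.5). The genes at the lower left of the GC panel include Scn7a (40.2% GC, -1.15) and Cacna2d1 (40.7% GC, -0.59).

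Promoters were read because members moved together in HDAC4 3SA mice and because class IIa deacetylases such as HDAC4 act at DNA through partner factors, MEF2 among them. RefSeq start windows on GRCm38.p6 were found for 27 of the 36 genes, 38 windows in all. The 250 bases upstream of the start are shown for the 3 genes with the lowest change in HDAC4 3SA mice, Scn7a, Cacna1e and Cacna2d1. Capitals mark GC boxes (GGGCGG, also read as CCGCCC on the other strand) and the E-box CAGCTG.
Scn7a: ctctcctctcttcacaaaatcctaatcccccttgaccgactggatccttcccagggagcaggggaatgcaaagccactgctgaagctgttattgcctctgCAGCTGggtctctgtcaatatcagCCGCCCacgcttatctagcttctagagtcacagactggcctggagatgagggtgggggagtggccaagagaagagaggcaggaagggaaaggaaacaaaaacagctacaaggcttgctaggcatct
Cacna1e: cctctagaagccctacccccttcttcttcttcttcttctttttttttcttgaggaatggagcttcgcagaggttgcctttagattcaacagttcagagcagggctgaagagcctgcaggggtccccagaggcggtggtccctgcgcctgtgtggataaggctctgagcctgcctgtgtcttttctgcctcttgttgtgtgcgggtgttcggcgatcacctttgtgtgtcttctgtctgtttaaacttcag
Cacna2d1: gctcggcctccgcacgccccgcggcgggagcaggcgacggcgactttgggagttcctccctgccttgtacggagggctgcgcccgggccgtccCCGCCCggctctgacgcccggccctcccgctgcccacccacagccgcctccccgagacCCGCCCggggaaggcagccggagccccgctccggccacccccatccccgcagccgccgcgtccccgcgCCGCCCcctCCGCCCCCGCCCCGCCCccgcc
The Scn7a sequence is chr2:66784911-66785160 (minus strand), with 53.2% GC, 1 GC box and 1 E-box. The Cacna1e sequence is chr1:154725921-154726170 (minus strand), a start inside the annotated gene, with 52.0% GC and neither motif. The Cacna2d1 sequence is chr5:15934441-15934690 (plus strand), with 82.4% GC and 6 GC boxes.

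Of the 4 motifs searched, 2 were in no window of a channel gene. The MEF2 core (CTA, 4 bases of any kind, TAG), searched on both strands, was in 0 of 38 windows of channel genes, where 3.69% of all 32851 windows had it. The GC box was in 15 of 38 windows (39.5%, against 35.7% of all), the E-box CAGCTG in 12 (31.6%, against 16.3%) and the CRE letters TGACGTCA in 0 (against 1.79%). A match or its absence concerns these letters in these windows only. Hdac4 itself read 7.41 and 7.72 FPKM in LacZ saline and CFA, 10.1 and 10.8 in HDAC4 wt, and 8.86 and 8.81 in HDAC4 3SA, and whether the reads of the vectors count toward it is not given in the sources used here.

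Genes that act on these channels were listed as partners together with genes of the separate sodium leak channel complex, 25 in all, of which 24 were read. With LacZ, HDAC4 wt and HDAC4 3SA their medians were -0.04, -0.05 and -0.14, and none was lower past the fold in any vector. Gem, a small GTPase that inhibits calcium channels, passed the fold upward in HDAC4 wt (0.59) and HDAC4 3SA mice (0.81). Fgf14, a regulator of sodium channels at the axon initial segment, did so in HDAC4 wt mice (0.60), Rrad, a relative of Gem, in LacZ mice (0.61), and Sptbn4, the spectrin of initial segments and nodes, in HDAC4 3SA mice (0.70). Sptbn4 was below 1 FPKM in all groups. The genes of the sodium leak channel complex were lower in HDAC4 3SA mice but inside the fold, with Nalcn at -0.33, Unc79 at -0.33 and Unc80 at -0.37. Of the anchoring genes, Ank3, the ankyrin of the axon initial segment, changed by -0.04 with HDAC4 3SA and Nfasc, its adhesion partner, by 0.26.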

How the data were processed

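RNA of dorsal spinal cord was sequenced from 3 mice per group. Per the labels and the study's methods, the authors made strand-specific libraries, mapped reads of 50 bases to GRCm38 (mm10) with Bowtie and TopHat, and ran Cufflinks and Cuffdiff. There is 1 table per vector. The deposited FPKM are Cuffdiff's estimates, 1 per group. The tables also hold the authors' own fold changes, test statistics, p-values and q-values, which were not used. Rows were matched between the 3 tables by identifier (34579 rows each), and the row with the highest mean FPKM stood for each gene name. Changes are log2((CFA + 0.1)/(saline + 0.1)), read for genes with 0.5 FPKM in a group and called past 0.5. The calculation was tested on simulated data (Python 3.11.15, pandas 2.3.3). The study states a minimum depth but none per library, so the precision of single values is unknown, and the tests foreseen for values per mouse could not be run. The genes named are all members read, with the 6 values for the 3 highest of each role, for those past the fold and for those with part of the gene in the locus, and list genes past the fold. Single results of some genes that this rule covers are not reported here. Other genes were named after their values were seen. The members and lists were chosen with earlier results of these data known.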

Additional observations from a re-analysis of the deposited data

How the results depend on the processing

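Counts past the fold and medians were recomputed with 0 or 1 FPKM added, with minimum levels of 1 FPKM, 5 FPKM or none, centred on genes above 5 FPKM, with the rows of a name summed, and with thresholds of 0.25 and 1. The median change of each vector moved by less than 0.1. In HDAC4 3SA mice the 6 genes became 3 with 1 FPKM added, 4 with a minimum of 5 FPKM, 4 with rows summed (without Scn3a, -0.47, and Scn9a, -0.20), 7 with no minimum (6 lower and 1 higher), 19 at 0.25 and 1 at 1, which is Scn7a. Of all genes there, 1.61% were lower and 6.02% higher past the fold with 1 FPKM added, 2.50% and 7.25% with 5 FPKM, 3.70% and 10.1% with rows summed, 4.26% and 10.8% with no minimum, 12.6% and 20.3% at 0.25, and 0.934% and 3.07% at 1. In HDAC4 wt mice the 1 gene became 0 with 1 FPKM added, with a minimum of 5 FPKM, with rows summed and at 1, and became 3 with no minimum (4.49% of all genes lower, 6.41% higher) and 9 at 0.25 (10.1% and 14.2%). In LacZ mice the count of 0 became 2 with no minimum (3.65% and 6.04%) and 2 at 0.25 (6.64% and 12.7%). Scn9a in HDAC4 wt mice turned to 0.16 with rows summed. After the data had been seen, Scn9a was also read from the rows of its own strand: it turned to 0.62 from the highest row and 0.52 from their sum in HDAC4 wt mice, and to 0.33 and 0.03 in HDAC4 3SA mice, and 5 genes then remained past the fold there. The causes of these shifts were not tested. No paired analysis was possible because the tables hold 1 value per group and none per mouse, and for the same reason no mouse could be left out in turn. The unknown depth per library and spread between mice limit every value.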

Other observations

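Other marker lists were read in the same way. Astrocyte genes had medians of 0.09, 0.19 and 0.26 in LacZ, HDAC4 wt and HDAC4 3SA mice, and oligodendrocyte precursor genes 0.10, 0.25 and 0.27. The 3 leptomeningeal fibroblast genes had medians of 0.55, 0.23 and 0.13, with Lum (0.55) and Col1a1 (0.62) past the fold in LacZ mice. The 3 ependymal genes had medians of -1.10, 0.20 and 0.21, with Ccdc153, Ak7 and Tmem212 all lower past the fold in LacZ mice, and Ccdc153 higher past it with HDAC4 wt (1.34) and HDAC4 3SA (0.70). The 2 smooth muscle genes, Acta2 and Myh11, had medians of -0.04, 0.29 and 0.66 and both passed the fold in HDAC4 3SA mice. The oligodendrocyte genes Mog, Mag, Mobp and Cldn11 lay between -0.07 and 0.41 over the 3 vectors. None of the 33 channel genes was listed at 0 in any group.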
